A study of Mus musculus with 7 samples.

Results

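Iron uptake, export and storage were described through 9 genes in the ileum of mice on a normal cystine (normal cys) or low cystine (low cys) diet. The genes were the transferrin receptor gene Tfrc, the transporter and oxidoreductase genes Slc11a2, Slc40a1, Cybrd1 and Heph, the ferritin chain genes Fth1 and Ftl1, and Aco1 and Ireb2, which encode the iron regulatory proteins. They were found by symbol among the 38293 genes of the deposited count table, where all 9 were listed, and 8 of them were among the 14869 genes that passed the filter on low counts. The set was chosen by a measured value, the diet difference of Tfrc in these same libraries, so the diet difference of the 9 genes is given as a description without a test.

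RNA came from male C57BL/6NRJ mice, housed individually, with 4 mice on the normal cys diet and 3 on the low cys diet. The age of 8 weeks is the one given for the mice as they were housed, and no age at RNA collection is given. Both diets were purified, low in calcium and high in fat, with 40% of the energy from fat, and were given for 2 weeks after 1 week of acclimatization on the control diet. They differed in total cystine, at 0.38% in the normal cys diet and 0.08% in the low cys diet, where alanine took the place of the added L-cystine. After a short fast the epithelium was scraped together with the lamina propria from the ileum, the last part of the small intestine, so every library mixes enterocytes, crypt cells, immune cells and stroma, and in such bulk samples fewer cells of a type and less RNA per cell cannot be told apart.

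Dietary iron enters the enterocyte at its brush border after a reductase, CYBRD1, has reduced it, through the transporter DMT1, the product of Slc11a2. It leaves at the basal side through ferroportin, the product of Slc40a1, where hephaestin (Heph) oxidises it for binding to transferrin. Iron that is not exported is stored in ferritin, built from heavy (Fth1) and light (Ftl1) chains. TFRC takes up iron bound to transferrin from the blood side and is known to be abundant in dividing cells, including those of the crypt. Most of this absorption is known to take place in the duodenum, upstream of the ileum studied here.

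The messages of several of these genes carry iron-responsive elements (IREs), short hairpins with a hexaloop that the iron regulatory proteins bind when iron is scarce. An IRE in a 5′ UTR then blocks translation, as in ferritin, whereas the IREs in the 3′ UTR of Tfrc protect the message from decay. The hairpins were therefore located in the transcripts of GENCODE M21 (GRCm38, the build of the count table). The core searched was a C, 5 bases, the hexaloop CAGTGN and 5 bases that pair with the first 5, allowing G-T pairs, on the transcript strand. This core was present in the 5′ UTR of 31 of 20916 genes (0.148%) and in the 3′ UTR of 129 of 21039 genes (0.613%). The sequences below are the 29-base windows around the matches of the members, with the hexaloop in capitals. They show in which UTR each match lies, and whether a match controls its message was not tested.
Tfrc 3′ UTR, 895 bases after the stop codon: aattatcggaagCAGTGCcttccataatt
Tfrc 3′ UTR, 1274 bases after the stop codon: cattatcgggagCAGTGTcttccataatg
Tfrc 3′ UTR, 1339 bases after the stop codon: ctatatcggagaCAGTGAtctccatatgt
Tfrc 3′ UTR, 1386 bases after the stop codon: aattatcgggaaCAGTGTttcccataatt
Fth1 5′ UTR: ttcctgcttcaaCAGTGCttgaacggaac
Ftl1 5′ UTR: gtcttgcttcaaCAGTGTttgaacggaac
Slc40a1 5′ UTR: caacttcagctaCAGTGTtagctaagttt
Slc11a2 3′ UTR: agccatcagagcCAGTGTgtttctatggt

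Tfrc held 4 cores in its 3′ UTR, on the plus strand at chr16:32631219-32631247, chr16:32631598-32631626, chr16:32631663-32631691 and chr16:32631710-32631738, with loops that began 895, 1274, 1339 and 1386 bases after the stop codon. In the 5′ UTRs, 1 core each was found in Fth1 (chr19:9982732-9982760, plus strand), Ftl1 (chr7:45459779-45459807, minus strand) and Slc40a1 (chr1:45925465-45925493, minus strand). The loop lay 120 bases before the start codon in Fth1, 158 in Ftl1 and 212 in Slc40a1. The hairpin of Slc11a2 (chr15:100395153-100395181, minus strand, 44 bases after the stop codon) was found only with the relaxed core, which allows 1 mismatched pair or 1 unpaired base in the stem. The relaxed core occurred in the 3′ UTR of 4.89% and the 5′ UTR of 1.23% of genes. It was found in 1 Slc11a2 transcript, and the count of this gene sums the isoforms with and without it. These letters were not found in the UTRs of Cybrd1, Heph, Aco1 and Ireb2.

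**Figure D1:**
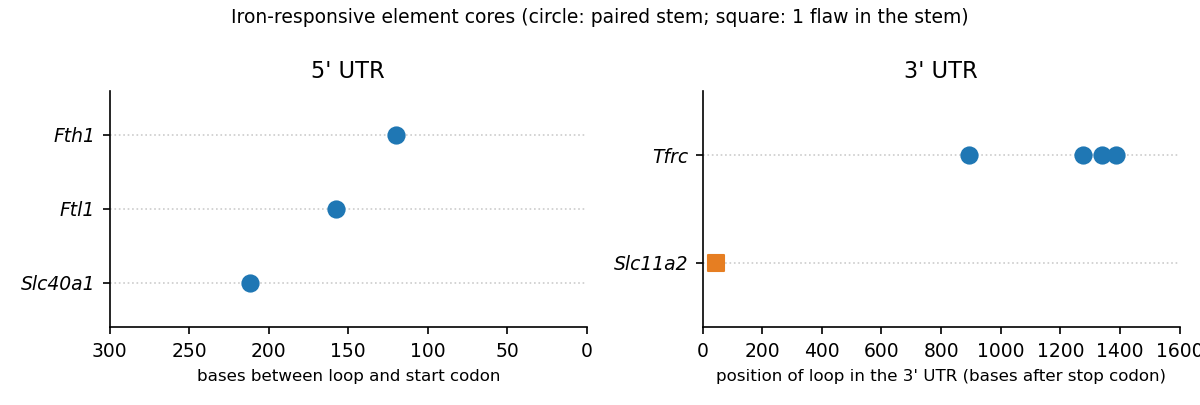
Positions of the IRE cores in the members' transcripts, with the number of bases from the loop to the start codon on the left axis and from the stop codon to the loop on the right axis; circles are fully paired cores and the square is the relaxed core of Slc11a2. Tfrc has 4 cores between 895 and 1386 bases after the stop codon, and the 5′ UTR genes have 1 each.

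The libraries held 14888760 to 22412703 counts, and no pair among the 7 libraries held identical values, with correlations of log2 counts between 0.981 and 0.990 over the 21 pairs. Genes of the distal ileum were abundant, since a list in which Fabp6, the gene of an ileal bile acid binding protein, carried 58.9% of the sum reached 7050 to 11960 CPM (counts per 1000000 counts of the library size after TMM scaling) on normal cys and 5760 to 8790 CPM on low cys. The list of the proximal intestine was led by Rbp2. It summed to 1233, 1482, 3043 and 2033 CPM on normal cys and to 485, 1132 and 2278 CPM on low cys. This sum thus varied between mice within both diets. Low cys mouse 1 had the lowest proximal and the lowest distal sum of all libraries. Position along the intestine and enterocyte content therefore cannot be told apart here, and their part in the member values was not tested. Red cell RNA was scarce, as the erythroid list summed to 10.8 to 21.6 CPM on normal cys and 14.4 to 18.6 CPM on low cys, with Slc4a1 at 0 in every library and Alas2 and Car1 at 0 in some. One library stood apart, that of low cys mouse 1, whose mature enterocyte list summed to 21450 CPM against 36880 to 60470 CPM in the others, so the fold changes of the members that passed the filter are also given without it. In edgeR's quasi-likelihood test over all genes, 0% of genes had a Benjamini-Hochberg adjusted p under the threshold of 0.05, and by DESeq2 16 of 14855 genes did (0.108%). At an unadjusted p under 0.05 edgeR gave 817 genes (5.49%), of which 2.66% of all genes tested were higher and 2.83% lower on low cys.

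Tfrc, at chr16:32608920-32632794, was the only member whose libraries did not overlap between the diets. Its level was 67.5, 62.1, 59.4 and 45.5 CPM in normal cys mice 1 to 4 and 153, 146 and 106 CPM in low cys mice 1 to 3. Every low cys library was thus above every normal cys library, and the lowest of them was 1.56 times the highest normal cys library. The mean was 58.6 ± 9.36 CPM (SD, n = 4) on normal cys and 135.1 ± 25.8 CPM (SD, n = 3) on low cys, a ratio of 2.30. The fitted log2 fold change was 1.20 (SE 0.18). These values rest on 953 to 3758 counts per library, so counting error is small beside the spread between mice. Over all genes tested, 6.83% did not overlap between the diets, 3.32% being higher and 3.51% lower on low cys. Tfrc was selected for its diet difference, so its place in this share adds nothing to the selection.

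The difference of Tfrc was about as large under every scaling. Its log2 fold change was between 1.19 and 1.35 with the other tools, scalings and filters, the highest value coming from scaling to library size alone, which moved the median log2 fold change of all genes from 0.0072 to 0.15. Leaving out single libraries gave 1.10 without normal cys mouse 4 to 1.35 without low cys mouse 3, and 1.11 without low cys mouse 1, the library that stood apart. By DESeq2 Tfrc was among the 16 genes with an adjusted p under 0.05, which repeats the difference it was selected for and is no further support.

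**Figure D2:**
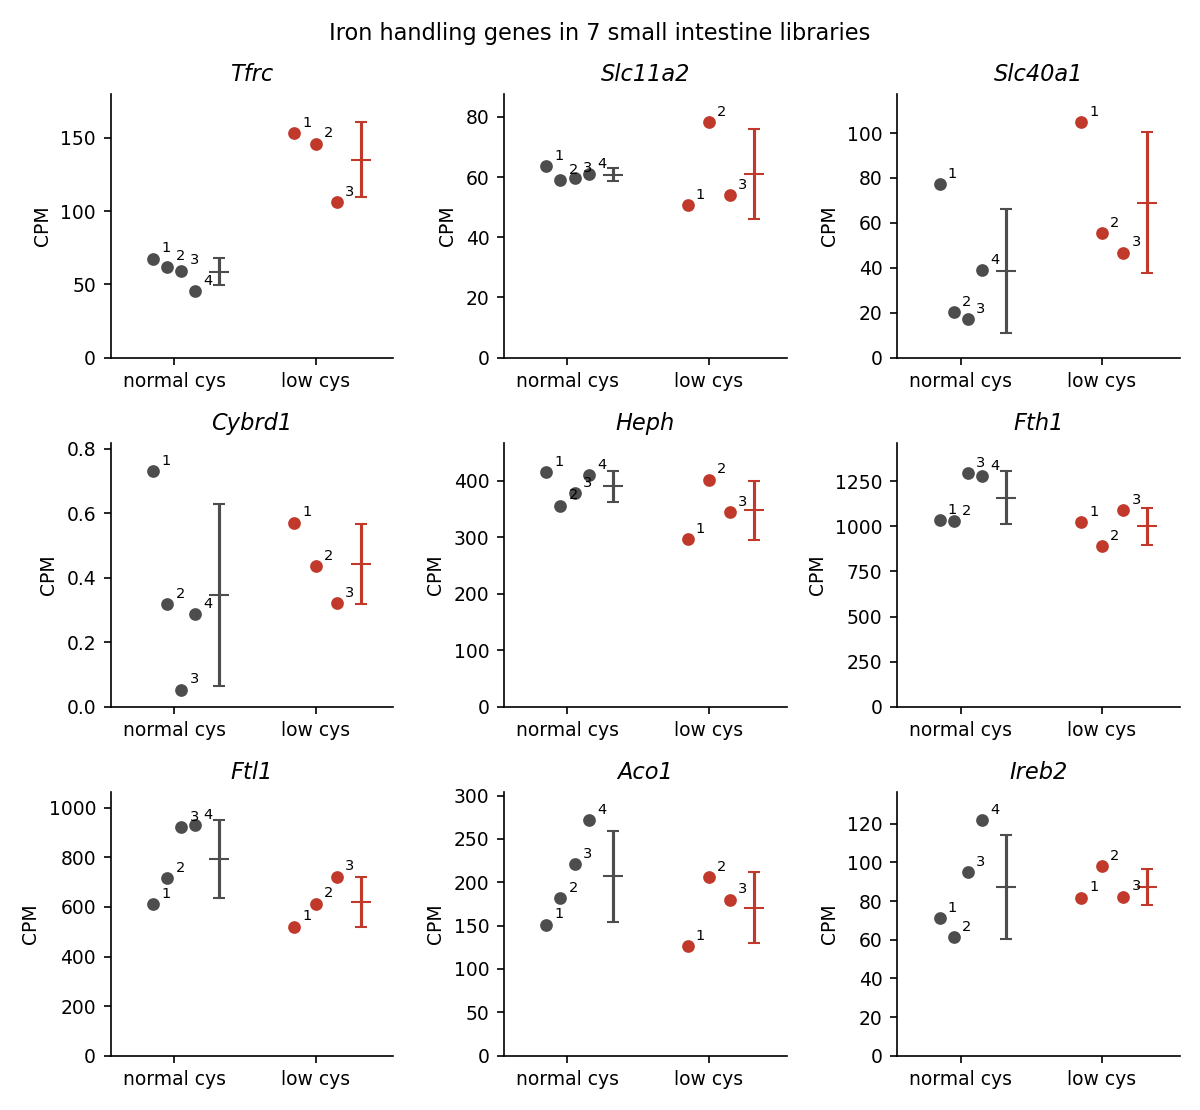
Level of each member in CPM after TMM scaling (vertical axes, each from 0) in the 4 normal cys and 3 low cys libraries, with the mouse number beside each point and the mean ± SD to the right. Only the Tfrc libraries separate by diet (45.5 to 67.5 CPM against 106 to 153 CPM).

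The gene of the apical iron transporter, Slc11a2 (chr15:100387898-100425072), had the same mean level on both diets. It was at 63.7, 58.9, 59.7 and 61.1 CPM in the normal cys mice and at 50.6, 78.4 and 54.1 CPM in the low cys mice. The normal cys mice were close together, with a coefficient of variation of 3.49%, and lay inside the wider range of the low cys mice, whose coefficient was 24.8%. The log2 fold change was 0.0030 (SE 0.16). Its sign depended on the mice, at -0.20 without low cys mouse 2, where the low cys libraries were lower without overlap, as 19.7% of all genes were free of overlap in that setting, and at 0.13 without low cys mouse 1.

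The ferric reductase gene Cybrd1 (chr2:71117923-71142926) was close to the limit of detection. Its libraries held 1 to 14 counts, or 0.0526 to 0.732 CPM on normal cys and 0.322 to 0.571 CPM on low cys. It did not pass the filter, and at this depth no diet difference could be seen.

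Slc40a1, the ferroportin gene (chr1:45908070-45925594), varied most between mice on the same diet among the members that passed the filter. It was at 77.2, 20.4, 17.3 and 38.9 CPM in the normal cys mice and at 105, 55.4 and 46.8 CPM in the low cys mice. Normal cys mouse 1 lay above low cys mice 2 and 3, so the groups overlapped, and the highest normal cys library was 4.45 times the lowest. The means were 38.5 ± 27.5 CPM (SD, n = 4) and 69.0 ± 31.3 CPM (SD, n = 3), with a log2 fold change of 0.85 (SE 0.52). This estimate was decided by single libraries, since it was 1.44 without normal cys mouse 1, where the groups, like those of 17.97% of all genes, did not overlap, and 0.42 without low cys mouse 1. Slc40a1 carried 330 to 2567 counts, so the spread is not one of counting.

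Heph, the ferroxidase gene that acts beside ferroportin (chrX:96455359-96574485), was at 415, 356, 378 and 410 CPM on normal cys and at 297, 402 and 345 CPM on low cys. The groups overlapped and the log2 fold change was -0.16 (SE 0.15). It was -0.05 without low cys mouse 1 and -0.26 without low cys mouse 2, where the groups did not overlap, as for 19.7% of all genes. Low cys mouse 2 also had the highest Slc11a2 level of all libraries and stood out in smooth muscle genes, with Myh11 at 10.7 CPM against 0.478 to 3.16 CPM in the other libraries, and their part in the Heph and Slc11a2 values was not tested. The pseudogene Rpl17-ps8 lies within Heph on the same strand and had 1135 to 2249 counts of its own.

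Both ferritin genes were abundant and somewhat lower on low cys by their estimates, within the spread of the mice. Fth1 (chr19:9982703-9985092) was at 1034, 1028, 1297 and 1279 CPM in the normal cys mice and at 1022, 891 and 1090 CPM in the low cys mice. Only normal cys mice 3 and 4 stood above all low cys mice, and the log2 fold change was -0.21 (SE 0.16). It was -0.28 without low cys mouse 3, where the Fth1 groups did not overlap, as for 11.6% of all genes, -0.11 without low cys mouse 2, -0.22 without low cys mouse 1 and -0.06 when scaled to library size alone. Ftl1 (chr7:45457944-45459884) was at 612, 715, 922 and 929 CPM in the normal cys mice and at 521, 613 and 722 CPM in the low cys mice. Again normal cys mice 3 and 4 were above all low cys mice, and the log2 fold change was -0.36 (SE 0.20), or -0.24 without low cys mouse 1. Ftl1 is the less certain of the pair, because 50.9% of the 50-base stretches of its transcripts also occur in those of 15 other genes, among them the pseudogenes Ftl1-ps1 and Ftl2-ps, against 1.59% for Fth1. How reads that map to several places were counted is not given in the sources used here. The ratio of Fth1 to Ftl1 was 1.38 to 1.69 on normal cys and 1.45 to 1.96 on low cys, and the ranges overlapped.

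Aco1, the gene of iron regulatory protein 1, which doubles as cytosolic aconitase (chr4:40143081-40198338), was at 151, 182, 221 and 272 CPM on normal cys and at 126, 206 and 180 CPM on low cys. The groups overlapped and the log2 fold change was -0.28 (SE 0.23), or -0.09 without low cys mouse 1 and -0.12 without normal cys mouse 4. Ireb2, the gene of iron regulatory protein 2, which is degraded when iron is plentiful (chr9:54863755-54912534), was at 71.2, 61.5, 94.8 and 122 CPM on normal cys and at 81.8, 98.0 and 82.2 CPM on low cys. Its low cys mice lay inside the range of the normal cys mice, with the same mean of 87.3 CPM on both diets and a log2 fold change of 0.06 without low cys mouse 1. These are mRNA levels, and the activity of both proteins is known to be set mostly after translation.

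**Figure D3:**
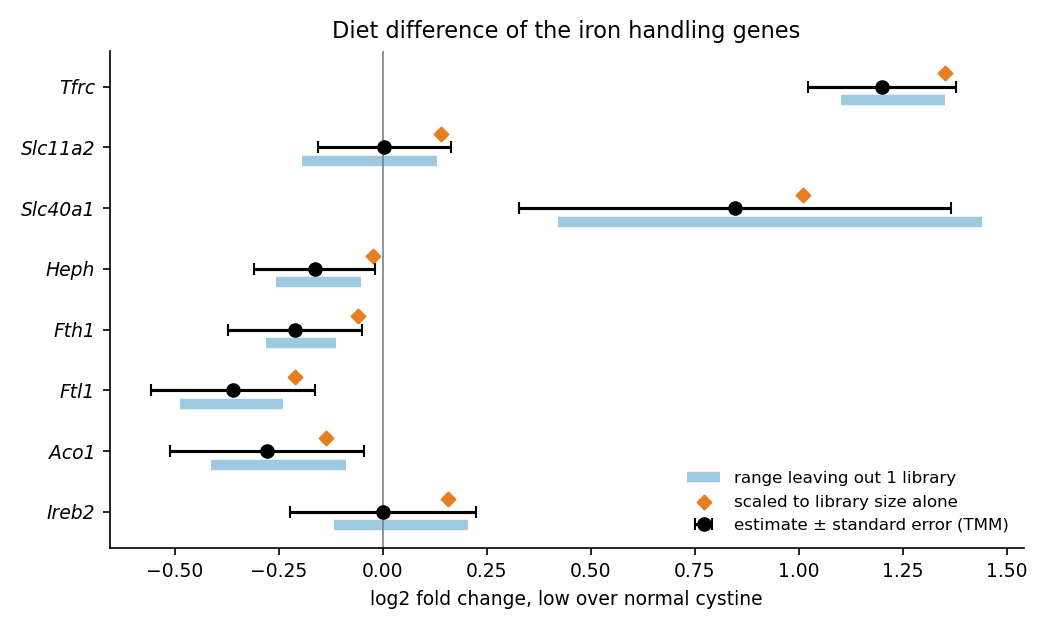
Log2 fold change, low cys over normal cys, of the 8 members that passed the filter, as the estimate ± SE (black), its range when each library is left out (blue) and the value with scaling to library size alone (orange). Tfrc stands at 1.20, Slc40a1 at 0.85 with a range from 0.42 to 1.44, and the other members lie between -0.36 and 0.0030.

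The contrast between Tfrc and the other members was also present inside each library, where scaling plays no part. Per 100 Fth1 counts there were 6.53, 6.04, 4.58 and 3.56 Tfrc counts in the normal cys mice and 15.01, 16.4 and 9.69 in the low cys mice, groups that did not overlap. The ratio of Tfrc to Slc11a2 counts was 1.06, 1.05, 0.995 and 0.745 on normal cys and 3.03, 1.87 and 1.95 on low cys. The ratio of Tfrc to Ireb2 was 0.374 to 1.01 on normal cys and 1.28 to 1.88 on low cys. Tfrc was likewise higher relative to Heph, Aco1 and Ftl1 in every low cys library than in any normal cys library. Only the ratio of Tfrc to Slc40a1 overlapped, at 0.875, 3.04, 3.42 and 1.17 on normal cys and 1.46, 2.64 and 2.26 on low cys. Since Tfrc was chosen for its difference, these ratios describe the same observation.

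Compared per length, as CPM per kilobase of exon, the ferritin genes were far above the rest. The mean level was 1339 ± 172 CPM per kilobase (SD, n = 4) for Fth1 on normal cys and 1156 ± 117 (SD, n = 3) on low cys, and 593 ± 117 and 462 ± 74.9 for Ftl1. Fth1 was above Ftl1 and Ftl1 above Heph in 7 of 7 libraries, with ranges that did not overlap. Heph followed at 50.9 and 45.4 CPM per kilobase and Aco1 at 46.0 and 37.9, in this order in 6 of 7 libraries and with overlapping ranges. Ireb2, Slc40a1, Tfrc and Slc11a2 had lower means, although Slc40a1 overlapped with Aco1 and exceeded it in 1 of 7 libraries, and their mean levels on normal cys were 15.03, 11.4, 9.48 and 9.58 CPM per kilobase. On low cys Tfrc reached 21.8 ± 4.17 CPM per kilobase and Slc40a1 20.4 ± 9.25 (SD, n = 3), while Slc11a2 was at 9.61. Cybrd1 was at 0.065 and 0.0831 CPM per kilobase, below Slc11a2 in 7 of 7 libraries.

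Other genes of iron handling were counted in lists drawn up by function. Of 104 such genes in the table, 95 were tested, and edgeR gave 0 with an adjusted and 0 with an unadjusted p under 0.05, where 5.49% of all genes had the latter, while DESeq2 gave 0 with an adjusted and 4 with an unadjusted p under 0.05 (Egln3, Slc39a14, Slc39a8 and Vegfa), where 6.32% of all genes had the latter. Their estimates were higher on low cys for 42 and lower for 53 genes, with a median log2 fold change of -0.06 beside 0.0072 for all genes. The count moved with single mice, as it did over all genes. Without normal cys mouse 1 there were 10 genes (Egln3, Mcoln1, Myc, Ncoa4, Pdk1, Slc25a37, Slc39a8, Steap1, Steap2 and Steap3) beside 11.9% of all genes at that threshold, without normal cys mouse 2 there were 4 (Ncoa4, Slc39a14, Vegfa and Zfp36) beside 6.17% of all genes, without normal cys mouse 4 there were 2 (Iba57 and Slc25a28) beside 5.65% and without low cys mouse 2 there was 1 (Slc39a8) beside 6.30%.

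The genes that work with TFRC followed no common direction. In the transferrin receptor cycle, 10 of 12 genes were tested, with 5 estimates higher, 5 lower and 0 at an unadjusted p under 0.05, and the log2 fold changes ranged from -0.36 to 0.45. Rab11a, which returns endosomes with the receptor to the surface, was the highest at 141 ± 14.9 CPM (SD, n = 4) on normal cys and 127 ± 8.34 CPM (SD, n = 3) on low cys. The libraries of 1 gene of the cycle did not overlap, March8, named here after its values were seen, which encodes a ubiquitin ligase that directs the receptor to degradation. It was at 127, 127, 131 and 155 CPM on normal cys and at 103, 126 and 114 CPM on low cys, so low cys mouse 2 was barely below the normal cys mice. Tfr2, the receptor of hepatocytes and red cell precursors, was at 0 in some libraries, and so was Scara5.

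Among the regulators, the list on control of iron gene mRNA had 15 genes tested, with 5 estimates higher and 10 lower, and its highest gene was Zfp36, which encodes an mRNA decay factor, at 233 ± 40.9 CPM (SD, n = 4) on normal cys and 200 ± 12.3 CPM (SD, n = 3) on low cys. Of the 7 other messages known for IREs, 5 were tested. Their estimates were higher for 1 gene and lower for 4. Among the members with an IRE, the estimates were higher for Tfrc and Slc40a1, lower for Fth1 and Ftl1, and Slc11a2 was at the same mean level. The groups overlapped for each of them except Tfrc. An IRE in a 5′ UTR acts on translation, which mRNA levels do not show, so these directions are no test of IRE control.

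Of 11 enterocyte targets of HIF-2, the hypoxia factor known to drive absorption genes in iron deficiency, 10 were tested, 3 of the 11 being members, and 5 estimates were higher and 5 lower. The highest was Vegfa at 175, 92.0, 160 and 247 CPM on normal cys and 109, 110 and 112 CPM on low cys, with a log2 fold change of -0.61 (SE 0.28). Its normal cys mouse 2 was below every low cys mouse. In the list on other import, export and storage 13 of 18 genes were tested, with 6 higher and 7 lower, and Slc25a37, the gene of a mitochondrial iron importer, was the highest at 307 ± 117 CPM (SD, n = 4) and 231 ± 36.2 CPM (SD, n = 3).

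The users of iron were counted in the same way. Of 18 heme genes 6 estimates were higher and 12 lower, with log2 fold changes from -0.74 to 0.41, with the heme and porphyrin exporter gene Abcg2 the highest at 336 ± 80.3 CPM (SD, n = 4) and 306 ± 35.3 CPM (SD, n = 3). Of 28 iron-sulfur cluster genes 17 were higher and 11 lower, led by the chaperone gene Hspa9 at 127 ± 32.4 CPM (SD, n = 4) and 153 ± 28.4 CPM (SD, n = 3). Isca1, named after its values were seen, did not overlap between the diets, but by little, at 45.3 to 47.3 CPM against 48.3 to 48.6 CPM. Over all iron lists outside the members, 1 gene was thus higher and 1 lower without overlap among 95, beside 3.32% and 3.51% of all genes.

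**Figure D4:**
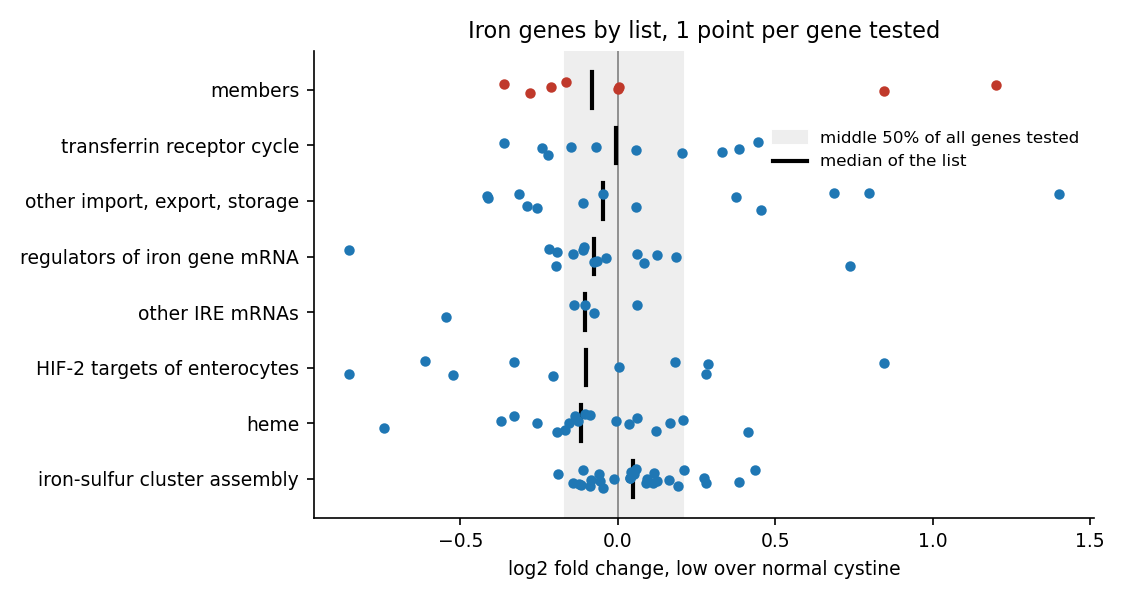
Log2 fold change, low cys over normal cys, of each iron gene tested (points; red for the members), with the median of each list (black bar) and the middle 50% of all genes tested (grey). The list medians lie between -0.12 for heme and 0.05 for iron-sulfur cluster assembly, and 3 members recur among the HIF-2 targets.

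Marker lists of cell types and states were set beside Tfrc. The sum of 14 proliferation genes was 476, 351, 207 and 165 CPM in the normal cys mice and 544, 293 and 465 CPM in the low cys mice, with 14 of 14 estimates higher and 1 at an unadjusted p under 0.05. The groups overlapped. With the log2 of this sum as a covariate, a setting added once the data had been seen, the log2 fold change of Tfrc was 1.09 (SE 0.18), against 1.20 without it, and the part of proliferating cells in the Tfrc difference was not tested further. Crypt and stem cell genes summed to 139 to 235 CPM on normal cys and 156 to 217 CPM on low cys, with 45.5% of the sum from Axin2, the gene with the 1 lower estimate, while the other 7 of 8 estimates were higher. Slc12a2 was the 1 gene of this list with an unadjusted p under 0.05 and with libraries that did not overlap, at 28.9 to 39.0 CPM on normal cys and 46.0 to 79.3 CPM on low cys.

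The mature enterocyte list, whose sum Fabp2 led with 27.2%, was at 39820, 41220, 60470 and 56900 CPM on normal cys and at 21450, 36880 and 39660 CPM on low cys, without overlap but with normal cys mouse 1 and low cys mouse 3 close together. In 8 of 8 of its genes the estimate was lower, and 2 (Apoa1 and Krt20) had an unadjusted p under 0.05. With this sum as a covariate, also added later, the log2 fold change was 0.93 (SE 0.21) for Tfrc and -0.09 (SE 0.60) for Slc40a1, 0.04 for Ftl1 and 0.25 for Aco1, so that the latter 3 changed sign. Diet and this sum are partly confounded, and the part of enterocyte content in the member values was not tested further.

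Immune and connective tissue lists were summed in the same way. The B and plasma cell sum, 56.6% of it from Xbp1, was 199 to 344 CPM on normal cys and 373 to 423 CPM on low cys, and the stromal sum was 16.7 to 25.2 CPM and 28.9 to 33.7 CPM, both without overlap, with the stromal gene Lum at 0 in some libraries. Pdgfrb carried 56.9% of the stromal sum but overlapped, at 9.62 to 20.9 CPM on normal cys and 13.0 to 18.3 CPM on low cys. Of the 7 stromal genes tested, 2 did not overlap. Dcn was at 1.18 to 2.20 CPM on normal cys and 3.61 to 6.87 CPM on low cys. Col3a1 was at 1.05 to 3.08 CPM and 3.80 to 6.32 CPM. Because the B and plasma cell sum and the stromal sum separate the diets as Tfrc does, their part in its difference was not tested. The macrophage sum, of interest for Slc40a1 since macrophages export much iron, was 42.4, 39.9, 37.7 and 12.7 CPM on normal cys and 37.4, 45.7 and 52.8 CPM on low cys, with Cd163 and Spic at 0 in some libraries. Low cys mouse 1 had the highest Slc40a1 level and the lowest macrophage sum of its group, and the part of macrophages in the Slc40a1 values was not tested. T cell, smooth muscle and endothelial sums overlapped between the diets, but 94.1% of the smooth muscle sum came from Mylk. All 7 smooth muscle genes had higher estimates, with a median log2 fold change of 1.44 and 2 genes (Des and Actg2) at an unadjusted p under 0.05, and low cys mouse 2 was the highest library for each of them. Among the endothelial genes, Kdr and Cldn5 were at 0 in some libraries.

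**Figure D5:**
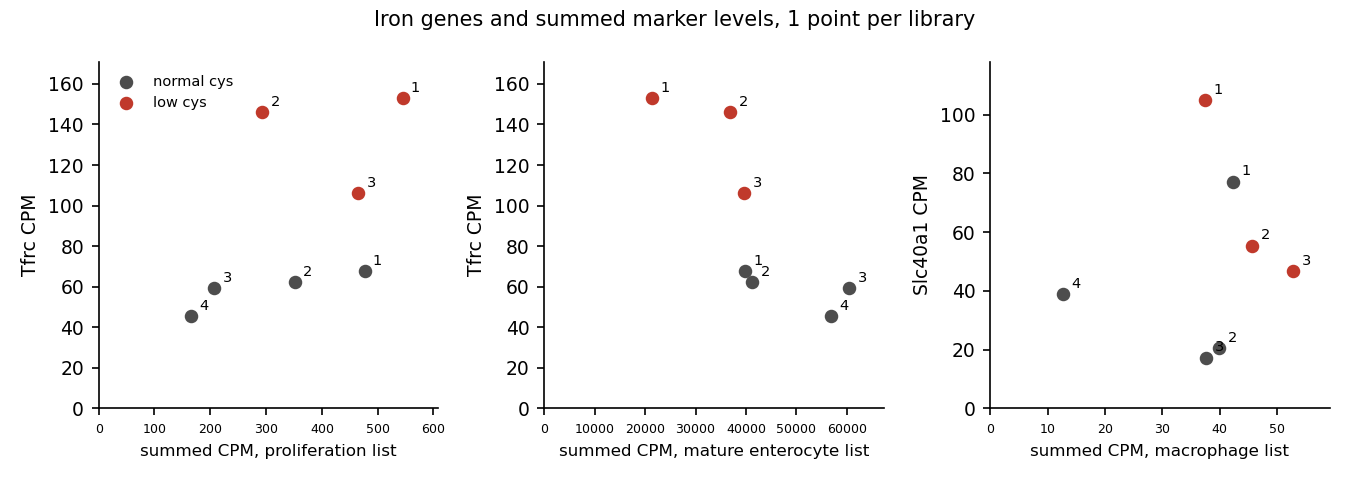
Tfrc against the summed levels of the proliferation (left) and mature enterocyte lists (middle), and Slc40a1 against the macrophage list (right), all in CPM, 1 point per library with the mouse number. Tfrc lies at 45.5 to 67.5 CPM on normal cys and 106 to 153 CPM on low cys, while the proliferation sums of the diets overlap and the mature enterocyte sums do not.

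Among the members, Ftl1 followed Tfrc most closely in the opposite direction once the diet means were taken off. Over the 7 libraries the Pearson correlation of these log2 CPM deviations was -0.82 for Ftl1, -0.68 for Fth1 and for Aco1, -0.52 for Ireb2, 0.31 for Slc40a1, 0.20 for Slc11a2 and -0.16 for Heph. Other members were more alike than Tfrc was to any of them, with 0.87 for Slc11a2 and Heph and 0.86 for Ftl1 and Aco1. Marker sums were as close to these genes. The correlation with the smooth muscle sum was 0.93 for Slc11a2 and 0.96 for Heph. Since 94.1% of that sum came from Mylk, these values mostly describe likeness to Mylk. With the mature enterocyte sum it was 0.89 for Ftl1 and 0.88 for Aco1. The part of tissue content in the likeness of these pairs was not tested. All of these share libraries and scaling and are given as descriptions only.

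Of the 14868 other genes tested, the log2 level of Lamb2, a laminin chain gene, was most like that of Tfrc, with a Pearson correlation of 0.997 over the 7 libraries and 0.97 after removing the diet means. Lamb2 was low, at 1.00 ± 0.20 CPM (SD, n = 4) on normal cys and 2.86 ± 0.57 CPM (SD, n = 3) on low cys. It was followed by the syndecan gene Sdc2 (0.983), Tex9 (0.977), GM8989 (0.970) and Gm4070 (0.958). At the opposite end stood the chloride channel gene Clcn2 (-0.978), at 212 ± 11.6 CPM (SD, n = 4) and 160 ± 9.82 CPM (SD, n = 3), then Nat8b (-0.973), Pin4 (-0.969), Swsap1 (-0.967) and Apeh (-0.965). Each of these 10 genes separated the diets without overlap, as any gene this close to Tfrc does, so the correlations largely repeat the diet split.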

How the data were processed

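RNA of 7 ileal scrapings was sequenced by the authors as poly(A)-selected stranded paired reads of 50 bases. Per the methods and the submitters' processing notes, reads were trimmed (Trim Galore 0.6.5), cleared of ribosomal RNA (SortMeRNA), aligned to GRCm38 (STAR) and counted on exons (featureCounts, Ensembl annotation), and the authors deposited raw read counts per gene. The strand setting of the counting is not given in the sources used here. Samples were grouped by their labels. Members and gene lists were chosen with earlier results of these data known.

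Genes were filtered with filterByExpr (minimum count 10, minimum total 15), scaled by TMM and fitted with the robust quasi-likelihood test of edgeR 4.0.16 (R 4.3.3), with Benjamini-Hochberg adjustment over all 14869 genes, with a prior count of 2 for log2 values. The biological coefficient of variation was 25.5%. P-values measure the spread between single mice. The named genes are the members, list genes with an unadjusted p under 0.05 and the highest gene of each list, the 5 genes most and the 5 least like Tfrc, and markers at 0 or carrying most of a sum. Older symbols were resolved through GENCODE M21, and 1 list gene was not found. Some genes that this rule names are not reported here. DESeq2 1.42.0, limma-voom (limma 3.58.1), other scalings and filters, and leaving out each library were the alternatives. The fit was tested on simulated data. Hairpins and shared stretches were searched in GENCODE M21 transcripts. Promoters and the genome outside transcripts were not used here.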

Additional observations from a re-analysis of the deposited data

Results flagged for a closer look

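No member had a library that stood apart from the rest of its group by Dixon's test in the 4 normal cys mice, whereas 3 marker sums did, among 21 groups of values examined, where chance would give 1.05. The crypt and stem cell sum of normal cys mouse 1 was 235 CPM against 139 to 150 CPM in the others (gap over range 0.855), and this mouse also had the highest Tfrc and Slc40a1 levels of its group. The macrophage sum of normal cys mouse 4 was 12.7 CPM against 37.7 to 42.4 CPM (0.903), and its endothelial sum was 2.01 CPM against 4.68 to 5.49 CPM (0.842). That mouse had the lowest Tfrc level of its group. The low cys group of 3 was too small for this test.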

How the results depend on the processing

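Genes with an adjusted p under 0.05 numbered 0 in edgeR, 16 in DESeq2 and 0 to 1 when single libraries were left out (1 without normal cys mouse 2). Members with an unadjusted p under 0.05 numbered 1 (Tfrc, by its selection, so no test of it) and 1 to 3 with single libraries left out, 3 (Ftl1, Slc40a1 and Tfrc) without normal cys mouse 1, beside 11.9% of all genes. Members without overlap numbered 1 and 1 to 3, being Heph, Slc11a2 and Tfrc without low cys mouse 2, beside 19.7% of all genes. Other iron genes with an unadjusted p under 0.05 numbered 0 of 95 tested, beside 5.49% of all genes. They numbered 4 in DESeq2 (6.32% of all genes), 1 with DESeq2's size factors (5.41%) and 2 with library size alone (6.97%). There were 5 without a filter (4.88%), 2 with the proliferation covariate (4.49%) and 2 with the mature enterocyte covariate (1.58%). Leaving out single libraries gave 0 to 10, where 1.71% to 11.9% of all genes were at this threshold. The log2 fold change of Tfrc was 1.20, 1.10 to 1.35 with single libraries left out and 0.93 with the mature enterocyte sum as a covariate, where Slc40a1 was at -0.09, Ftl1 at 0.04, Aco1 at 0.25 and Ireb2 at 0.38. The cause of these shifts was not tested. Heph and Fth1 kept a negative sign in all 16 settings, while Slc11a2 and Ireb2 changed sign in 6 each. Scaling to library size alone moved the genes at an unadjusted p under 0.05 from 396 higher and 421 lower to 911 and 126. Fully paired IRE cores were found in 4 members, and the search that also allowed the relaxed core found 5, the same 4 and Slc11a2. Depth limits Cybrd1, and the number of mice limits the rest. No paired analysis was possible because the labels give the mice no shared numbers.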
